A study of Mus musculus with 7 samples.

Results

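A set of 32 genes of glucose metabolism was described across single-cell RNA libraries of mouse double-negative T cells (DNT cells, αβ T cells that carry neither CD4 nor CD8) and of conventional T cells. The members were the rows of the listed symbols among the 27514 genes present in all 7 count matrices, and every symbol was found. They comprised 4 sugar and lactate carriers, 10 genes of the upper and 9 of the lower part of glycolysis, 7 genes of the pentose phosphate pathway and 2 of the pyruvate dehydrogenase step. All 32 passed the filter on low counts in the test of activated against naive DNT cells.

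Glycolysis splits glucose into pyruvate and yields ATP and NADH, and lactate dehydrogenase can return pyruvate to lactate, which leaves the cell through monocarboxylate carriers. The pentose phosphate pathway branches off after hexokinase and supplies NADPH and ribose phosphate for nucleotides. T cells that receive antigen and costimulatory signals are known to raise glucose uptake and glycolysis, whereas resting T cells rely more on mitochondrial oxidation.

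The cells came from spleens of 8-week-old male C57BL/6 mice. Activated DNT cells were sorted naive DNT cells that had been stimulated in culture with anti-CD3/CD28 antibody and IL-2 (20 ng/ml, over 3 days), and gave 2 libraries. Naive DNT cells, CD3+ NK1.1- TCRαβ+ TCRγδ- CD4- CD8- cells that did not stain with the αGal-CD1d and LPC-CD1d reagents, were taken straight from the sort in 2 libraries. The CD4, CD8 and TCRab groups shared the CD3+ NK1.1- TCRαβ+ TCRγδ- gate, were sorted as CD4+ CD8-, as CD4- CD8+ or with no further gate, and gave 1 library each. The naive label refers to cells without culture, and stimulation, IL-2 and time in culture cannot be told apart. Replicate 1 of both DNT groups and the 3 single libraries used the 10x Chromium 3′ kit v2, and replicate 2 of both DNT groups used kit v3. The series text describes the DNT replicates as biological.

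After filtering, 1549 to 6728 cells per library remained, with totals of 17255173 to 53342795 UMIs (unique molecular identifiers, 1 per captured RNA molecule) over the shared genes. Median UMIs per cell were 15724 and 9347 in activated DNT, 4090 and 7511 in naive DNT, and 3966 to 4877 in the other 3 libraries. Levels are given as UMIs scaled to a common library total (CPM), and since a 3′ UMI stands for 1 molecule whatever the transcript's length, they were not divided by length. Cd4 reached 137 CPM in the CD4 library and at most 0.204 CPM in the DNT libraries, and Cd8b1 reached 1306 CPM in the CD8 library and at most 15.2 CPM in DNT. Cells were counted as other types from 3 UMIs and 0.5% of UMIs of a marker list (B cells, myeloid cells, neutrophils, red cells or platelets). They numbered 0 and 5 in activated DNT, 75 and 144 in naive DNT and 17 to 30 elsewhere. Fewer UMIs were common, with a red cell UMI in 64.3% and 10.0% of naive and 0% and 0.194% of activated cells. A neutrophil UMI was found in 38.1% and 1.14% of naive and 0.670% and 1.03% of activated cells. For the myeloid list the values were 44.1% and 53.7% of naive and 79.2% and 66.4% of activated cells. Most of these cells held Cst3, found in 37.9% and 51.2% of naive and 78.2% and 65.1% of activated cells. Cd68 was also found in more activated cells, at 3.41% and 3.27% of naive and 5.92% and 6.78% of activated cells. Lyz2, Csf1r and Spi1 were found in fewer, with Lyz2 in 8.64% and 1.92% of naive and 0% and 0.0646% of activated cells. Red cell genes took 0% and 4.36e-05% of UMIs in activated DNT, against 0.370% and 0.0819% in naive DNT. Neutrophil genes took 3.49e-05% and 0.00652% of UMIs in activated DNT, against 0.143% and 0.00526% in naive DNT. Kit, Cell Ranger version and gene reference changed together between replicates 1 and 2 and cannot be told apart.

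Promoters of the 2 members that passed the test and of Hk2, whose level set DNT cells most apart from the other T cells, are shown first, as windows of 250 bases before to 50 after the start, in gene direction. They come from the RefSeq table for build GRCm38.p6. Slc16a3 lies at chr11:120948817-120949116 (+), Pdk1 at chr2:71872974-71873273 (+) and Hk2 at chr6:82774405-82774704 (-). Capitals mark ACGTG or GCGTG on either strand, the core of the element bound by hypoxia-inducible factors.
Slc16a3: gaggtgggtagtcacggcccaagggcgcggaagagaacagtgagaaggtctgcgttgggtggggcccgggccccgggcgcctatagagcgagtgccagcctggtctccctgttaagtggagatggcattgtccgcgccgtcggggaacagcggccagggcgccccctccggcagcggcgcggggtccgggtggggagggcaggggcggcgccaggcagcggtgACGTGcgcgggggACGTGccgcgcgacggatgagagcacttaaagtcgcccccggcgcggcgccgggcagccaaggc
Pdk1: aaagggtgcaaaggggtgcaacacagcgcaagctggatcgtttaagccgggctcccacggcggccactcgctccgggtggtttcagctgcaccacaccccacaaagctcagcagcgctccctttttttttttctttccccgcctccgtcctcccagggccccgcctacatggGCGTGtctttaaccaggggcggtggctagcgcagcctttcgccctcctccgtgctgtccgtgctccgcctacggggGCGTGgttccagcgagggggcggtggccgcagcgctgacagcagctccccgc
Hk2: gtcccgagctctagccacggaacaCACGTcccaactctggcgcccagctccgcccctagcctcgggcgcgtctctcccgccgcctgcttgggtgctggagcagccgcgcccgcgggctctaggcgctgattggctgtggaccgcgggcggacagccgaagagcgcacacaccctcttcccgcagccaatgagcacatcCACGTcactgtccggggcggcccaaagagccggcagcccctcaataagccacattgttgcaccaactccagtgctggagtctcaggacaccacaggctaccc
A second Pdk1 window in the table, at chr2:71874654-71874953 (+), held 0 matches. The table held 45 windows for 31 of the 32 members. ACGTG or GCGTG occurred in 35 of these 45 windows (77.8%), against 43.8% of all 32851 windows. The E box CACGTG, which contains ACGTG and is bound by Myc, occurred in 8.89% of member windows, against 7.15% of all windows. Both cores contain a CpG, and member windows held a median of 20 CpGs and 60.7% G+C, against 7 CpGs and 52.7% in all windows. The part of base composition in the share of windows with a match was not tested, and a match is not evidence of binding.

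Activated DNT cells devoted a larger part of their RNA to these genes than naive DNT cells did. The 32 members together took 0.515% and 0.662% of UMIs in the activated libraries, against 0.289% and 0.313% in the naive libraries, and 0.251% to 0.321% in CD4, CD8 and TCRab. Means were 0.589% ± 0.104 in activated and 0.301% ± 0.0166 in naive DNT (SD, n = 2 each), a ratio of 1.96. The groups did not overlap, although an exact permutation test of 2 against 2 libraries cannot give a two-sided p below 0.333. The ratio was 2.17 for the 19 glycolysis enzymes, 1.57 for the 4 carriers and 1.22 for the 7 pentose phosphate genes. Gapdh, the enzyme that makes the NADH of glycolysis, was the most abundant member in all 7 libraries, and without it the ratio was 1.78.

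**Figure D1:**
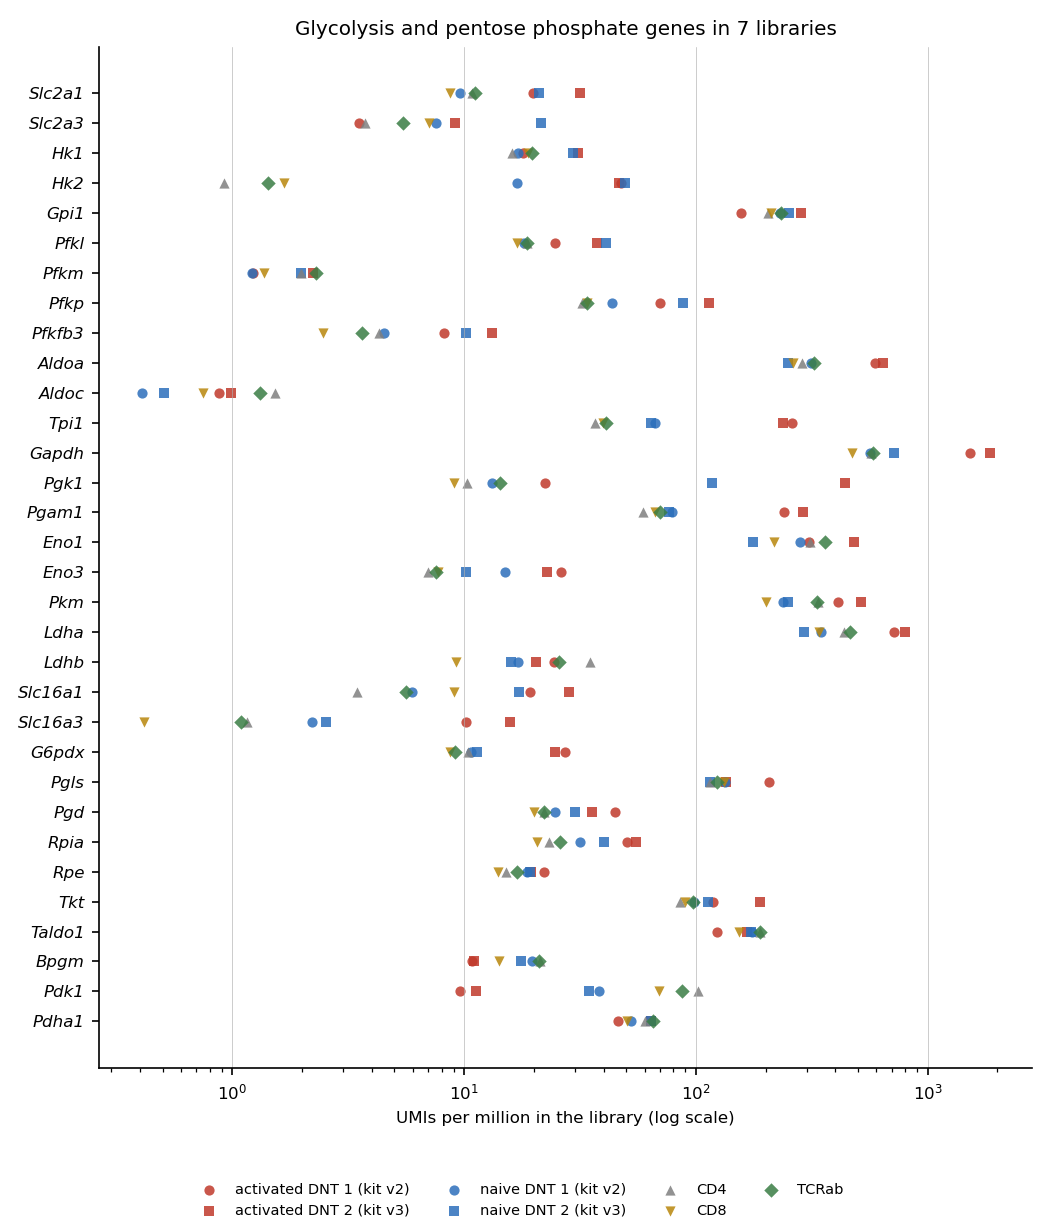
Level of each of the 32 members in the 7 libraries, in CPM on a log axis, with activated DNT in red, naive DNT in blue and the 3 single libraries in grey, ochre and green. Tpi1, Pgam1, Gapdh and Ldha sit to the right in both activated libraries, Hk2 sits far to the left in CD4, CD8 and TCRab, and Pgk1 separates by kit.

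Gene by gene, few members passed the test. Of the 32 tested with edgeR's quasi-likelihood F test, adjusted over 12325 genes at 0.05, 1 rose (Slc16a3), 1 fell (Pdk1) and 30 passed in neither direction. Of all genes tested, 5.32% rose and 5.06% fell, so the members were not called more often than genes in general. With the kit as a block, which uses the pairing of the libraries by kit, 11 members rose and 3 fell, against 19.9% of all genes higher and 19.8% lower. The members' median log2 fold change was 0.46 against -0.05 over all genes, with 23 above 0 and 9 below. Both activated libraries lay above both naive libraries in CPM for 18 members and below for 3, against 30.8% and 21.1% of all genes. On TMM-scaled values, which correct for composition, the counts were 15 and 5, against 28.1% and 29.5%. The groups of Slc2a1, Slc2a3, Pfkp, Pfkfb3 and Pdha1 stayed apart only with TMM scaling. Those of Eno1, Eno3, Ldhb, Pgls, Pgd and Rpe stayed apart only in plain CPM. Leaving out that scaling moved the median of all genes by more than 0.1, to 0.08, and then 0 members passed the test in either direction.

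**Figure D2:**
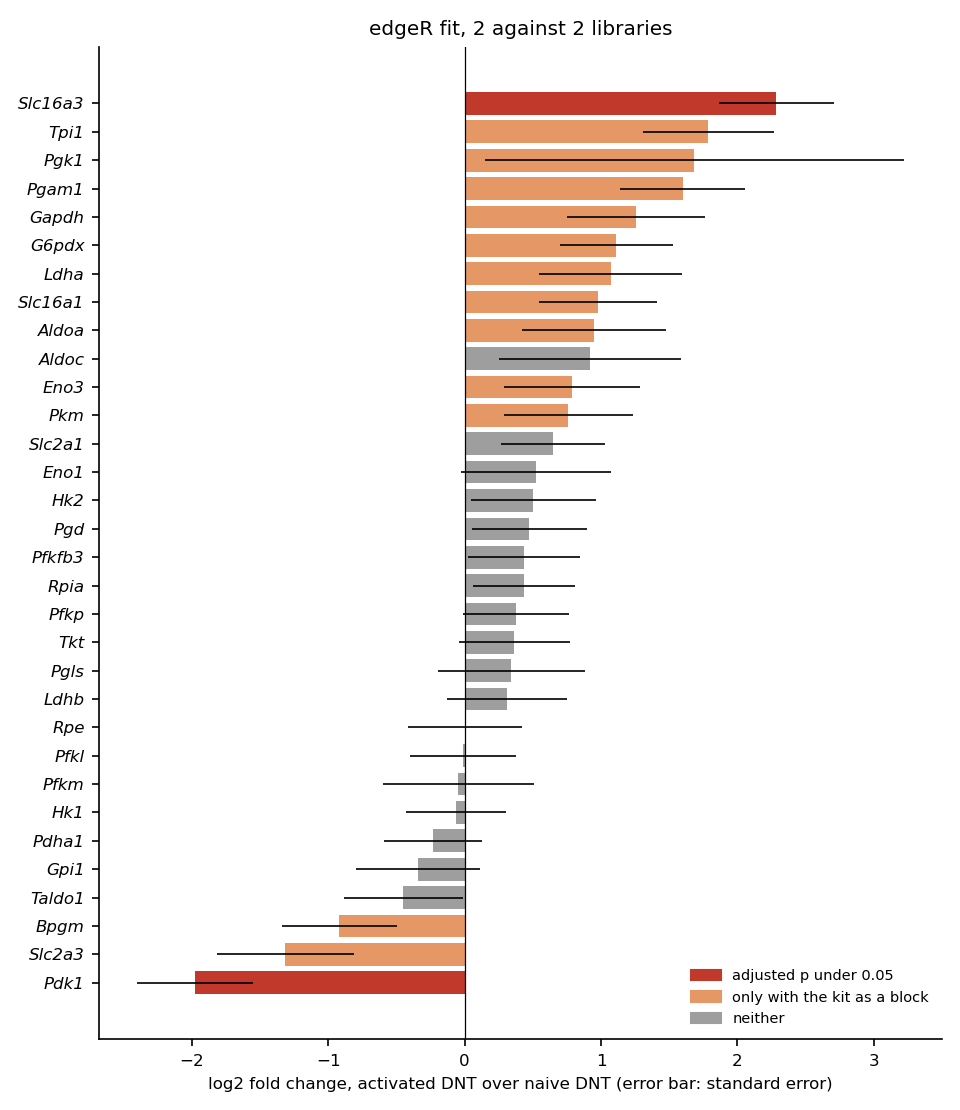
Log2 fold change of each member, activated over naive DNT, from edgeR on 2 against 2 libraries, with standard errors as bars. Slc16a3 at 2.28 and Pdk1 at -1.98 stand at the ends and passed the test, and 12 further members passed only with the kit as a block.

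Slc16a3 (MCT4), a lactate exporter of cells with high glycolytic flux, had the largest rise. It stood at 10.2 and 15.7 CPM in activated DNT, against 2.20 and 2.53 CPM in naive DNT, and at 1.15 in CD4, 0.416 in CD8 and 1.10 in TCRab. Both activated libraries were far above all others, though the gene was scarce, with a UMI in 1.06% and 1.56% of activated cells and 0.374% and 0.481% of naive cells after each cell was thinned to 1500 UMIs. Its log2 fold change was 2.28 ± 0.42 (SE, edgeR adjusted p = 0.0214). The call was lost without naive replicate 1 (adjusted p = 0.0539), without naive replicate 2 (0.0767), with no scaling beyond total UMIs (0.0909), without cells above 3 times the median UMIs (0.0860) and with thinned cells (0.203, log2 fold change 1.501), in a range of 8.37e-05 to 0.203 over 13 alternatives.

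The other lactate and pyruvate carrier, Slc16a1 (MCT1), measured 19.2 and 28.2 CPM in activated DNT, against 5.97 and 17.3 CPM in naive DNT. Its groups did not overlap but the replicates differed widely (log2 fold change 0.98 ± 0.43, edgeR adjusted p = 0.190, and 0.0161 with the block). Bsg, the chaperone that brings both carriers to the cell surface, measured 448 and 339 CPM in activated DNT, against 134 and 128 CPM in naive DNT (edgeR adjusted p = 0.122, and 0.000693 with the block). Its groups lay well apart in plain CPM. Slc16a3 made up 34.6% and 35.8% of the UMIs of both carrier genes in activated DNT, against 27.0% and 12.8% in naive DNT, 25% in CD4, 4.39% in CD8 and 16.3% in TCRab.

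Among glucose transporters, Slc2a1 (GLUT1), the transporter that T cells induce on activation, measured 19.7 and 31.5 CPM in activated DNT, against 9.62 and 21.1 CPM in naive DNT. Slc2a3 (GLUT3), a high-affinity transporter, measured 3.52 and 9.12 CPM in activated DNT, against 7.53 and 21.4 CPM in naive DNT. Within each kit Slc2a1 was higher and Slc2a3 lower in the activated library, while the CPM values of the groups overlapped across kits. Slc2a3 passed the test only with the block (log2 fold change -1.31 ± 0.50, edgeR adjusted p = 0.140, and 0.00523 with the block). Slc2a1 did not pass it either way (0.65 ± 0.38, edgeR adjusted p = 0.317, and 0.0514 with the block). The balance of the pair moved beyond the replicates, with Slc2a1 at 84.9% and 77.6% of the UMIs of both genes in activated DNT, against 56.1% and 49.6% in naive DNT. The CD4 library had a share of 74.3%, CD8 one of 55.1% and TCRab one of 67.0%.

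Slc2a6 (GLUT6), a transporter outside the member list, rose most among the related genes. It measured 43.5 and 22.4 CPM in activated DNT, against 2.09 and 1.18 CPM in naive DNT, and 0.0416 to 0.164 CPM in the other 3 libraries. In activated DNT its level was of the same order as that of Slc2a1, and its log2 fold change was 4.25 ± 0.73 (SE, edgeR adjusted p = 0.0203).

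Hexokinase, which traps glucose in the cell as glucose 6-phosphate, gave the widest gap between DNT cells and the other T cells. Hk2, the inducible isozyme, measured 47.5 and 46.5 CPM in activated DNT and 16.9 and 49.6 CPM in naive DNT, against 0.923 in CD4, 1.67 in CD8 and 1.42 in TCRab. Hk1, the constitutive isozyme, lay between 16.2 and 30.9 CPM in all 7 libraries. Hk2 thus formed 72.6% and 60.1% of hexokinase UMIs in activated DNT and 49.7% and 62.8% in naive DNT, against 5.41% in CD4, 8.11% in CD8 and 6.79% in TCRab. Activated and naive DNT overlapped in Hk2 level and in this share (log2 fold change 0.50 ± 0.46, edgeR adjusted p = 0.524). In naive replicate 1, made with the same kit v2 as the 3 single libraries, Hk2 was 18.3-fold higher than in CD4 (95% interval 11.6 to 30.4, counting error only), 10.1-fold higher than in CD8 (7.26 to 14.5) and 11.8-fold higher than in TCRab (7.92 to 18.4). Without cells of other types the levels were 15.6 and 49.8 CPM in naive DNT, against 0.512, 1.67 and 1.27 CPM in CD4, CD8 and TCRab.

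**Figure D3:**
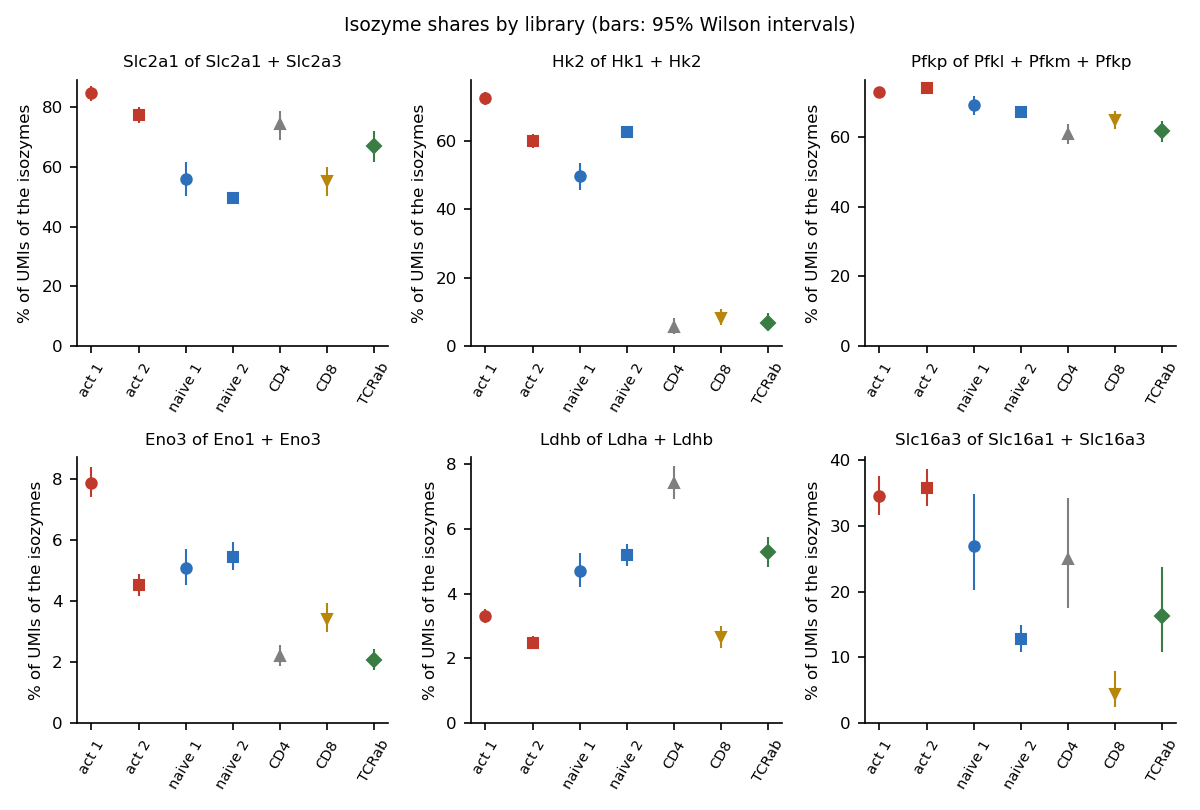
Share of an isozyme group's UMIs taken by its first-named member in each library, in percent, with 95% Wilson intervals for counting error. Hk2 lies between 49.7% and 72.6% in the 4 DNT libraries and below 10% in CD4, CD8 and TCRab, and Slc2a1 lies higher in activated than in naive DNT.

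Within naive DNT, Hk2 was concentrated in a minority of cells. After thinning, 73 of 3939 and 325 of 6512 naive cells held an Hk2 UMI. Genes were ranked by the ratio between cells with and without an Hk2 UMI, with 20 CPM added to both sides, which holds back scarce genes. The less extreme ratio of the naive libraries set the rank. Among the 20 genes with the largest such ratios were Maf, a transcription factor of effector lymphocytes, Icos, a costimulatory receptor, Ccr2, a chemokine receptor, and Blk, S100a4 and Lmo4. Icos measured 192 and 443 CPM in cells with an Hk2 UMI, against 31.7 and 84.3 CPM in the other naive cells. Among the 20 genes with the lowest ratios were Klrd1, Klra7, Nkg7 and Ccl5, known from cytotoxic lymphocytes, and Lef1, a factor of resting T cells. Ccl5 measured 3781 and 1149 CPM in cells with an Hk2 UMI, against 12486 and 6956 CPM in the others.

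The reverse view used 4 genes of the interleukin-17 programme (Il17a, Il23r, Ccr6 and Il17re), chosen after the Hk2 cells had been examined, so it is a description and not independent of them. Cells with at least 1 UMI of these genes were 1.27% and 5.08% of thinned naive cells. Hk2 stood at 227 CPM in these cells and 12.2 CPM in the other cells of naive replicate 1, and at 288 and 32.8 CPM in replicate 2. The ratios were 18.6 (95% interval 10.3 to 31.95) and 8.78 (7.15 to 10.75), with counting error only, and 24.6 and 17.7 with all UMIs of each cell in place of thinned ones. An Hk2 UMI was found in 24% and 30.5% of these cells, against 1.57% and 3.62% of the other naive cells. The naive library with more Hk2 was also the one with more such cells, and the part of that difference, or of the kit, in the Hk2 level was not tested.

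In activated DNT the contrast was not seen. Cells with a UMI of the 4 genes were 5.86% and 7.76% of thinned activated cells, and Hk2 stood at 50.8 and 23.4 CPM in them, against 39.1 and 28.5 CPM in the other activated cells. Those ratios were 1.30 (0.545 to 2.66) and 0.820 (0.216 to 2.21), and their intervals did not meet those of the naive libraries, although no test between the groups was made. The CD4 and TCRab libraries held 9 and 11 cells with such a UMI, with 0 Hk2 UMIs in them. The CD8 library held 0 of 4628, which allows a share of cells with such a UMI of up to 0.0648% and does not limit how many cells express the genes. Of the other members, Aldoa, Gapdh and Ldha also had intervals above 1 in both naive libraries, with ratios between 1.13 and 1.69. Pkm, the last ATP-forming step of glycolysis, had ratios of 1.48 (0.966 to 2.18) and 1.81 (1.56 to 2.08).

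**Figure D4:**
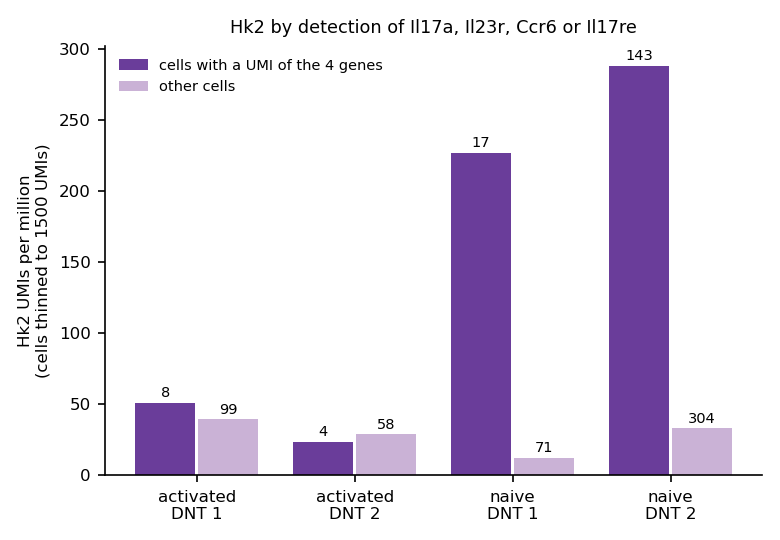
Hk2 level in CPM in cells with and without a UMI of Il17a, Il23r, Ccr6 or Il17re in the 4 DNT libraries, all cells thinned to 1500 UMIs. Numbers over the bars are Hk2 UMIs, and the dark bars reach 50.8 and 23.4 in activated DNT, against 227 and 288 in naive DNT.

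At the next steps of upper glycolysis no member passed the test, with or without the block. Gpi1, which converts glucose 6-phosphate to fructose 6-phosphate, measured 156 and 283 CPM in activated DNT, against 230 and 253 CPM in naive DNT. Pfkp, the platelet-type phosphofructokinase that catalyses the committed step, measured 69.8 and 114 CPM in activated DNT, against 43.3 and 88.1 CPM in naive DNT. In plain CPM the groups overlapped for both genes, while on the TMM scale those of Pfkp did not. Within each kit Pfkp was higher in the activated library. Neither gene passed the test (edgeR adjusted p = 0.678 for Gpi1 and 0.578 for Pfkp). Pfkp was the main phosphofructokinase gene everywhere, at 72.9% and 74.2% of the trio in activated DNT, against 69.1% and 67.2% in naive DNT, 60.9% in CD4, 64.9% in CD8 and 61.7% in TCRab. Pfkl, the liver type, took most of the rest at 16.99 to 40.9 CPM, and Pfkm, the muscle type, lay at 1.22 to 2.30 CPM. Pfkfb3, which makes the activator fructose 2,6-bisphosphate, measured 8.15 and 13.2 CPM in activated DNT, against 4.52 and 10.2 CPM in naive DNT (edgeR adjusted p = 0.540).

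From aldolase onward the shift was broader. Aldoa, the main aldolase, measured 595 and 640 CPM in activated DNT, against 312 and 251 CPM in naive DNT. Tpi1, triose phosphate isomerase, measured 259 and 237 CPM in activated DNT, against 66.6 and 63.9 CPM in naive DNT. In both genes the activated libraries stood clear of all 5 others, and Tpi1 had the second-largest log2 fold change of the members (1.79 ± 0.48, edgeR adjusted p = 0.0589, and 0.000184 with the block). Its adjusted p was 0.0244 without activated replicate 2 and ranged between 0.000184 and 0.290 over 13 alternatives. Aldoa passed only with the block (0.95 ± 0.53, edgeR adjusted p = 0.287, and 0.00583 with the block). Aldoc, the brain-type aldolase, lay at 0.406 to 1.52 CPM, below 1% of aldolase UMIs in every library.

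In lower glycolysis, none of the 9 genes passed the test without the block, and 6 rose and 1 fell with it. Gapdh measured 1515 and 1849 CPM in activated DNT, against 564 and 719 CPM in naive DNT and 472 to 581 CPM in the other 3 libraries (log2 fold change 1.26 ± 0.51, edgeR adjusted p = 0.157, and 0.000877 with the block). Pgam1, phosphoglycerate mutase, measured 240 and 290 CPM in activated DNT, against 79.2 and 76.3 CPM in naive DNT. It came near the threshold (1.60 ± 0.46, edgeR adjusted p = 0.0687, and 0.000407 with the block). Ldha, the lactate dehydrogenase subunit that favours lactate formation, measured 716 and 801 CPM in activated DNT, against 346 and 292 CPM in naive DNT (1.07 ± 0.52, edgeR adjusted p = 0.229, and 0.00310 with the block). Pkm measured 411 and 515 CPM in activated DNT, against 238 and 250 CPM in naive DNT. For these 4 genes both activated libraries exceeded all others, and Pkm too passed only with the block (edgeR adjusted p = 0.343, and 0.0182 with the block).

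The isozymes of enolase and lactate dehydrogenase kept one dominant gene. Eno1, the general enolase, measured 308 and 483 CPM in activated DNT, against 281 and 177 CPM in naive DNT, and its near-identical retrogene Eno1b makes its counts uncertain. Eno3, the muscle enolase, measured 26.3 and 22.9 CPM in activated DNT, against 15.1 and 10.2 CPM in naive DNT (edgeR adjusted p = 0.349, and 0.0204 with the block). Eno3 was 7.87% and 4.52% of enolase UMIs in activated DNT, against 5.08% and 5.45% in naive DNT, so the groups overlapped. Ldhb, the subunit that favours pyruvate formation, was 3.31% and 2.48% of lactate dehydrogenase UMIs in activated DNT, against 4.71% and 5.19% in naive DNT. Its own level did not fall, at 24.5 and 20.4 CPM in activated DNT, against 17.1 and 15.99 CPM in naive DNT (log2 fold change 0.31 ± 0.44, edgeR adjusted p = 0.693). The Ldhb share was highest in CD4 at 7.41% and was 2.65% in CD8 and 5.28% in TCRab.

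Pgk1, the first ATP-forming step, could not be read across kits. It measured 22.3 and 441 CPM in activated DNT, against 13.2 and 118 CPM in naive DNT, and 9.08 to 14.3 CPM in the other 3 libraries. The kit v3 libraries exceeded their kit v2 counterparts 19.8-fold in activated and 8.92-fold in naive DNT, and within each kit the activated library was higher. Its log2 fold change was accordingly imprecise (1.68 ± 1.54, edgeR adjusted p = 0.551, and 0.0159 with the block), was 2.61 without activated replicate 1 (adjusted p = 0.00463) and was -1.22 without activated replicate 2 (adjusted p = 0.204). Pgk1 was 1 of 8 members, with Slc2a1, Slc2a3, Hk1, Gpi1, Pfkl, Pfkp and Pfkfb3, that stood higher in both kit v3 libraries than in all 5 kit v2 libraries, and 0 stood lower, against 34.4% and 2.28% of all genes tested.

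Bpgm, which makes the haemoglobin effector 2,3-bisphosphoglycerate, measured 10.8 and 11.02 CPM in activated DNT, against 19.5 and 17.5 CPM in naive DNT (log2 fold change -0.92 ± 0.42, edgeR adjusted p = 0.203, and 0.0179 with the block). In naive DNT, 64 of 337 and 96 of 935 Bpgm UMIs lay in cells counted as other types, red cells included. Without such cells naive DNT measured 16.2 and 15.99 CPM, above both activated libraries. A red cell UMI was found in 64.3% and 10.0% of naive cells, so leaving out such cells does not remove all red cell RNA. The part of red cell RNA in the Bpgm difference was not tested.

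Most pentose phosphate genes lay higher in activated DNT by less than the test could separate. G6pdx, the NADPH-forming entry enzyme, measured 27.1 and 24.6 CPM in activated DNT, against 10.7 and 11.4 CPM in naive DNT, and 8.66 to 10.4 CPM in the other 3 libraries. Both activated libraries were clearly higher, and the gene passed with the block only (log2 fold change 1.11 ± 0.41, edgeR adjusted p = 0.130, and 0.00514 with the block). Pgd, the second NADPH-forming enzyme, measured 44.9 and 35.8 CPM in activated DNT, against 24.6 and 30.1 CPM in naive DNT. Rpia, ribose 5-phosphate isomerase, measured 50.4 and 55.0 CPM in activated DNT, against 31.6 and 40.1 CPM in naive DNT. Tkt, transketolase, measured 118 and 189 CPM in activated DNT, against 97.9 and 113 CPM in naive DNT. These 3 genes did not overlap between groups in CPM, but Pgd did so on the TMM scale, and they had log2 fold changes of 0.36 to 0.48, with edgeR adjusted p of 0.497 to 0.612.

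Pgls and Rpe also lay higher without overlap, at 206 and 135 CPM for Pgls in activated DNT against 134 and 115 CPM in naive DNT. For Rpe, ribulose phosphate epimerase, the values were 22.0 and 19.4 CPM in activated DNT, against 18.7 and 19.3 CPM in naive DNT, a small gap. For both Pgls and Rpe the groups overlapped on the TMM scale, so that G6pdx, Rpia and Tkt were the pentose phosphate genes that stayed apart on both scales. Taldo1, transaldolase, ran the other way, with 123 and 166 CPM in activated DNT, against 174 and 174 CPM in naive DNT (log2 fold change -0.45 ± 0.44, edgeR adjusted p = 0.554). Tkt and Taldo1 share the branch that returns pentoses to glycolysis, and their values moved in opposite directions without either passing the test.

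Pdk1, the kinase that shuts off pyruvate dehydrogenase, was the member that fell. It stood at 9.60 and 11.3 CPM in activated DNT, against 38.1 and 34.6 CPM in naive DNT, and at 102 CPM in CD4, 87.4 CPM in TCRab and 69.6 CPM in CD8. The libraries thus lay at 3 separate levels, activated DNT lowest, naive DNT between, and the other T cells highest. Its log2 fold change was -1.98 ± 0.42 (SE, edgeR adjusted p = 0.0319, and 0.000208 with the block). The call was lost without naive replicate 1 (adjusted p = 0.129), with no scaling beyond total UMIs (0.0982), without cells above 3 times the median UMIs (0.0999) and with cells thinned to 1500 UMIs (0.108), in a range of 0.000208 to 0.129 over 13 alternatives. Pdha1, the catalytic subunit that Pdk1 phosphorylates, measured 46.3 and 64.2 CPM in activated DNT, against 52.5 and 64.1 CPM in naive DNT (edgeR adjusted p = 0.724). Pdk3, another kinase of the complex, measured 39.4 and 30.9 CPM in activated DNT, against 13.6 and 10.1 CPM in naive DNT (edgeR adjusted p = 0.115, and 0.000889 with the block), and was named after its values were seen.

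Of 55 related genes outside the member list, 46 could be tested. Of these, 4 rose (Slc2a6, Pck2, Ddit4 and Bnip3) and 2 fell (Tktl1 and Pygl), against the same 5.32% and 5.06% of all genes, and the list's median log2 fold change was -0.03. With the block 11 rose and 8 fell, against 19.9% and 19.8% of all genes. With no scaling beyond total UMIs 0 passed in either direction. Ddit4, an inhibitor of mTORC1 that stress and hypoxia induce, measured 75.8 and 77.4 CPM in activated DNT, against 19.2 and 17.7 CPM in naive DNT, and 56.1 to 90.4 CPM in the other 3 libraries (log2 fold change 1.90 ± 0.43, edgeR adjusted p = 0.0365). Naive DNT was thus the low group for this gene. Pck2, mitochondrial phosphoenolpyruvate carboxykinase, measured 28.2 and 28.1 CPM in activated DNT, against 6.201 and 7.84 CPM in naive DNT (1.90 ± 0.39, edgeR adjusted p = 0.0291). Bnip3, a mitophagy receptor and hypoxia target, measured 10.5 and 13.1 CPM in activated DNT, against 3.19 and 3.56 CPM in naive DNT (1.66 ± 0.42, edgeR adjusted p = 0.0482).

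The genes that fell were scarce. Tktl1, a transketolase-like gene, had 0 and 1 UMIs in activated DNT, against 20 and 96 UMIs in naive DNT (edgeR adjusted p = 0.0161). Pygl, liver glycogen phosphorylase, had 4 and 2 UMIs in activated DNT, against 34 and 66 UMIs in naive DNT (edgeR adjusted p = 0.0308, and 0.0565 without cells of other types). Without scaling the adjusted p was 0.0664 for Slc2a6 and 0.0786 for Tktl1. Without naive replicate 1 it was 0.156 for Pygl, 0.104 for Pck2, 0.0822 for Ddit4 and 0.113 for Bnip3. Without naive replicate 2 it was 0.126 for Pck2, 0.175 for Ddit4 and 0.205 for Bnip3, and without activated replicate 1 it was 0.0615 for Pck2 and 0.119 for Bnip3. Myc, a transcriptional activator of glycolysis genes, measured 69.1 and 74.4 CPM in activated DNT, against 25.04 and 28.3 CPM in naive DNT (1.30 ± 0.39, edgeR adjusted p = 0.0769, and 0.00111 with the block), and was named after its values were seen. Hif1a, also named after its values were seen, measured 34.1 and 79.3 CPM in activated DNT, against 22.7 and 64.7 CPM in naive DNT. It did not pass the test either way (0.27 ± 0.47, edgeR adjusted p = 0.750, and 0.306 with the block).

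Among activated cells, members differed in how they went with the cell cycle. Each activated cell was thinned to 3000 UMIs, and cells with at least 3 UMIs of 26 proliferation genes were set against cells with 0. This took 655 and 430 of 1791 cells in replicate 1, and 328 and 481 of 1422 cells in replicate 2. The classes are ranges of a score, with 267 and 215 cells just under the limit of 3. Of the 28 members with at least 20 UMIs in each library, 18 were higher in cycling cells in both replicates and 5 lower, against 43.1% and 21.9% of 6798 genes with as many UMIs, the proliferation genes left out. Median ratios of these members were 1.23 and 1.31, against 1.18 and 1.025 over those genes. Tpi1 had ratios of 1.99 (95% interval 1.70 to 2.35) and 3.13 (2.54 to 3.86), and Eno3 of 2.23 (1.41 to 3.64) and 3.07 (1.44 to 6.97). Pgam1 followed with 1.51 and 1.59, and Hk2 with 1.53 and 1.63. Aldoa, by contrast, had 0.870 and 1.002, Pfkp 0.812 and 0.857, and Pfkfb3 0.438 and 0.489, so these were not higher in cycling cells. Intervals cover counting error only, and thinning equalises UMIs per cell, not RNA content.

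**Figure D5:**
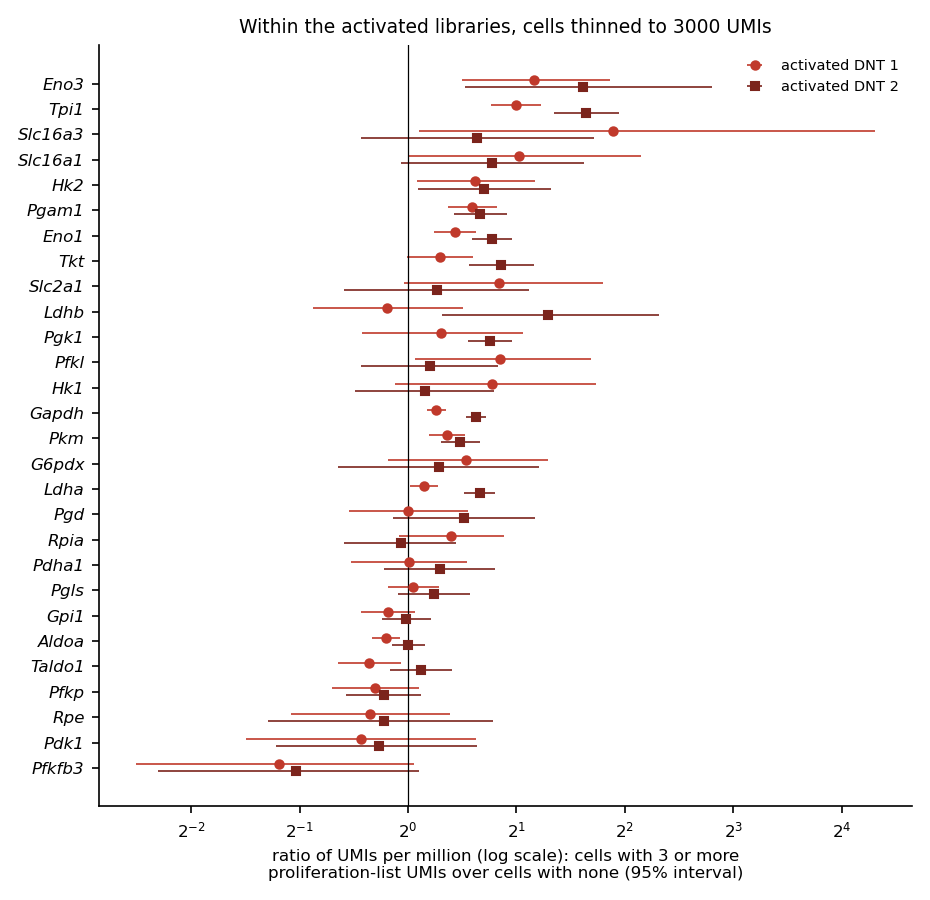
Ratio of each member's level in activated cells with at least 3 UMIs of the proliferation list over cells with none, on a log axis, for both activated libraries, with 95% intervals for counting error. The 28 members with at least 20 UMIs in each library are drawn, with Eno3 and Tpi1 above 1.9 in both and Pfkfb3 below 0.5 in both.

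Set against the 3 single libraries, naive DNT differed from them in few members by a rule that asks for a well measured level. With 1 library in each of the other groups no test was made, and a member was taken as different where both naive libraries differed from the single one by 2-fold or more in 1 direction and each library on the higher side had 20 CPM or more. Against CD4, 18 members could meet this rule, 0 were higher and 2 lower, against 5.51% and 1.34% of 4031 genes. They were Pdk1, with naive to CD4 ratios of 0.375 and 0.340, and Ldhb, with 0.491 and 0.460. Against CD8, 16 members could meet it, and 0 were higher and 0 lower, against 4.87% and 0.532% of genes. Pdk1 narrowly missed there with ratios of 0.548 and 0.497. Against TCRab, 18 members could meet it, 0 were higher and 1, Pdk1, was lower with ratios of 0.436 and 0.396, against 4.16% and 1.18% of genes. Hk2 missed the rule because naive replicate 1 lay under 20 CPM. Other scarce members missed it on level as well. Slc16a3 was 5.29-fold (95% interval 2.59 to 11.9, counting error only) and 6.08-fold (3.21 to 12.96) higher in naive DNT than in CD8, and 2.01-fold (1.14 to 3.65) and 2.31-fold (1.44 to 3.90) higher than in TCRab. Slc2a3 was 2.02-fold (1.52 to 2.69) and 5.74-fold (4.58 to 7.28) higher in naive DNT than in CD4. Aldoc was lower in naive DNT than in CD4 and TCRab, at 0.406 and 0.506 CPM in naive DNT, against 1.52 and 1.31 CPM. Without naive replicate 1, which leaves only the kit v3 library, 7 members were different against each of CD4, CD8 and TCRab. They were 7 of 24 members that could meet the rule against CD4 and against TCRab and of 22 against CD8, beside 38.1%, 36.4% and 40.2% of all such genes in that order of CD4, TCRab and CD8.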

How the data were processed

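The authors deposited 1 matrix of raw UMI counts per library, without normalization. Cell Ranger 2.1.0 and 3.0.1 with mm10 (GRCm38) are named per the submitters' processing notes, and software version 3.0.2 per the file headers of the kit v3 matrices. The references held 27998 (kit v2) and 31053 genes (kit v3), and the 27514 shared IDs were used, which left 0.400% to 0.594% of UMIs out. A second Aldoa ID of the kit v3 reference had 0 UMIs.

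Barcodes were kept from 200 detected genes upward and up to 10% mitochondrial UMIs. No doublet caller was run, and leaving out cells above 3 times their library's median UMIs was an alternative. At most 0.838% of a library's cells shared a barcode sequence with another library. Cells with at least 3 UMIs and 0.5% of UMIs of a marker list of another type were an alternative to leave out.

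UMIs were summed per library. Activated and naive DNT were compared with edgeR 4.0.16 (filterByExpr, TMM, robust quasi-likelihood F test, Benjamini-Hochberg) in R 4.3.3, with 2 residual degrees of freedom and a biological coefficient of variation of 0.429. DESeq2 1.42.0 was an alternative. Replicate numbers mark the kit in both DNT groups, per the labels, so they pair libraries by batch. Deviations of same-numbered libraries had r = 0.617 over genes, which are no independent replicates. The fit with the number as a block had 1 residual degree of freedom. Standard errors of log2 fold changes were taken as the absolute log2 fold change over the square root of the F statistic. Scripts were tested on simulated counts. Ratios have exact conditional and shares Wilson 95% intervals, which cover counting error only. Python 3.11.15 was used.

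The members and lists were chosen with earlier results of these data known. The text names every member, and of the related list the genes past the test. The views of Hk2 cells, the 4 interleukin-17 genes and the TMM-scaled overlaps were added after seeing the data. One gene of the Hk2 cells is not reported here.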

Additional observations from a re-analysis of the deposited data

How the results depend on the processing

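Of 491 refits of the 32 members and the 6 called related genes under single alternatives, 415 kept their direction and side of the threshold, 33 lost and 19 gained a call, and 24 turned round, each of the last with an adjusted p of at least 0.204. The cause was not tested in these cases. The count of all genes called, 1280 as reported, was 4894 with the replicate block, 65 with no scaling beyond total UMIs, 2188 with no filter on low counts, 337 with cells thinned to 1500 UMIs, 224 without cells above 3 times the median UMIs, 2348 with DESeq2 and 547 to 2074 without each replicate. For those settings in that order, members higher (1 as reported) were 11, 0, 3, 0, 0 and 4, and 0 to 2 without each replicate. Members lower (1) were 3 with the block, 0 without scaling, thinned or without high cells, and 0 to 1 without each replicate. Related genes higher (4) were 11 with the block, 0 without scaling, 2 thinned, 0 without high cells, and 1 to 5 without each replicate. Related genes lower (2) were 8 with the block, 0 without scaling, 0 thinned, 1 without high cells, 1 without cells of other types, and 1 to 3 without each replicate. With DESeq2 the members higher were Slc16a3, Tpi1, Pgam1 and Gapdh.

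Against CD4, members different (2) were 4 with at least 5 CPM and 2 to 7 without each naive replicate. Against CD8 (0) they were 1 with TMM-scaled CPM, 1 with at least 5 CPM and 0 to 7, and against TCRab (1) they were 2 with at least 5 CPM and 1 to 7. The activated minus naive share of Pfkp was 7.37 points with thinned cells (5.37 as reported), and that of Aldoc 0.0509 (-0.0151). The summed level differed by 0.184% of UMIs without Gapdh (0.288%). Hk2's ratio in cells with interleukin-17 genes was, in naive replicate 2, 17.7 with all UMIs of each cell and 11.9 with cells thinned to 3000 UMIs (8.78). Members below without overlap (3) were 5 on the TMM scale.

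Log2 fold changes turned round for 7 members. Hk1 (-0.06) came to 0.069 without scaling and -0.20 to 0.11 without each replicate. Pfkl (-0.01) came to 0.015 with the block, 0.025 with RLE factors, 0.068 without scaling, 0.0066 without high cells, 0.024 with DESeq2 and -0.27 to 0.31 without each replicate. Pfkm (-0.05) came to 0.089 without scaling and -0.23 to 0.15 without each replicate. Without each replicate Pgk1 came to -1.22 to 3.48, Ldhb (0.31) to -0.086 to 0.69 and Pgls (0.34) to -0.28 to 0.80. Rpe (0.0021) came to -0.015 with the block, -0.21 thinned, -0.015 without cells of other types, -0.00091 with every barcode, -0.061 without high cells and -0.34 to 0.31 without each replicate. Members under 3 CPM, such as Pfkm and Aldoc, have few counts behind their values.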
